A study of Saccharomyces cerevisiae with 95 samples.

Results

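The GID complex is the ubiquitin ligase with which budding yeast removes the enzymes of gluconeogenesis once glucose returns. The 8 subunit genes described here are *RMD5* (YDR255C), *FYV10* (YIL097W), *VID30* (YGL227W), *VID28* (YIL017C), *GID8* (YMR135C), *GID7* (YCL039W), *VID24* (YBR105C) and *GID10* (YGR066C), out of 6132 ORFs on the arrays. They were taken by ORF name, over all arrays, from a list chosen by their log2 ratios on these same arrays, the chemostat courses and steady states included, so their values are given as a description. Where a fit over all ORFs is used, the number of subunits past its threshold is set beside the share of all ORFs past it, and neither this number nor a call of a subunit is a test of the subunits, since the fit holds the values by which they were chosen. Rmd5 and Fyv10 form the catalytic RING pair, Vid30, Gid8 and Vid28 build the scaffold to which it is joined, and Gid7 links complexes into a larger ring. Vid24, also called Gid4, is the exchangeable receptor that reads an N-terminal proline on Fbp1, Icl1 and Mdh2 and is made when glucose is given to starved cells. Gid10 is a related, alternative receptor known from cells under osmotic or heat stress. All 8 genes matched their names in the reference annotation, and none of them overlapped another annotated gene there.

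Transcripts were measured on 95 two-color arrays of haploid budding yeast, each holding a log2 ratio of a Cy5-labeled sample over a Cy3-labeled one. On 5 arrays log-phase cells from glycerol medium (Cy5) were paired with cells of that strain from glucose medium (Cy3), for an *adh1* deletion in BY4741 (3 arrays) and for wild-type BY4741 (2 arrays). On 7 arrays *adh1* cells were compared with the overnight glucose culture they came from, at 0.5, 1, 2 and 4 h after a move to glycerol and at 0.5, 2 and 4 h after a move to fresh glucose. The other 83 arrays followed chemostat cultures over a batch culture of late log phase in the same kind of medium, in 5 glucose-limited and 5 histidine-limited courses, which the labels give as wild-type BY4741 throughout.

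The glucose-limited cultures received DTT (6 mM), a heat shock (39 °C for 5 h), NaCl (0.4 M), H2O2 (0.6 mM) or glucose to a final 0.04%. The histidine-limited cultures received DTT (6 mM), a heat shock (37 °C for 5 h), NaCl (0.31 M), the antifungal drug clotrimazole (10 µM) or histidine to a final 4 mg/l. DTT reduces disulfide bonds and clotrimazole blocks the synthesis of ergosterol. Every course had 1 array per time point, and 12 of the 83 arrays were taken before the onset. The study's results speak of a chemostat culture for each limiting nutrient. Neither the labels nor the methods say whether the courses of a limitation were run in separate chemostat cultures or in 1 culture sampled again. An SD or a fit over courses, in which each course counts as a replicate, may therefore cover repeat sampling only. For the histidine-limited cultures the study's methods name W303-1 bar1 with a CFP reporter in place of BY4741, so strain, limitation and batch culture cannot be told apart. Nothing says that the log-phase replicates came from separate cultures, and p-values from them may then measure technical spread only. All arrays carried the dyes the same way round, and any effect of the dyes remains in the ratios.

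Not every subunit was read everywhere. *GID10* had no value on the 5 log-phase arrays and at 2 and 4 h in glycerol, and *VID28* had none on the 7 transfer arrays. In 4 of the 5 histidine-limited courses *VID28* was listed at exactly 0 on all 35 arrays, which is read here as no reading. These zeros stayed in the fits as deposited, so no estimate of *VID28* in histidine limitation or across the limitations is given, and medians over the subunits that involve them are also given without it. The remaining exact zeros of the subunits numbered 4, and those that bear on a result are named beside it. For 3 of the histidine-limited courses there was a second array before the onset. Between such pairs of arrays the subunits differed by at most 0.50 on the log2 scale, for *VID24* in the NaCl course (-0.77 and -0.26), and by a median of 0.08 over the pairs that differed. Arrays held 5071 to 6132 values each, with medians between -0.03 and 0.03.

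The steady states set the receptors apart from the rest of the complex. In glucose-limited cultures before any perturbation the *GID10* log2 ratio over batch culture was 1.70 (DTT course), 3.16 (heat shock), 2.44 (NaCl), 1.75 (H2O2) and 2.53 (glucose). In histidine-limited cultures it was 0.91 (heat shock), 0.61 (NaCl), 1.35 (clotrimazole) and 0.53 (histidine). All 9 values were above 0, and the lowest glucose-limited one lay above the highest histidine-limited one. The means were 2.31 ± 0.60 (SD, n = 5 courses), 4.97-fold over batch, in glucose limitation and 0.85 ± 0.37 (SD, n = 4) in histidine limitation.

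*VID24* had steady-state log2 ratios of 0.74, 2.23, 1.39, 0.93 and 2.20 in the glucose-limited DTT, heat shock, NaCl, H2O2 and glucose courses. In the histidine-limited heat shock, NaCl, clotrimazole and histidine courses they were -0.26, -0.52, -0.34 and -0.94. The receptor thus stood above its batch culture in all 5 glucose-limited courses and below it in all 4 histidine-limited ones, with no overlap. Its means were 1.50 ± 0.69 (SD, n = 5) and -0.51 ± 0.30 (SD, n = 4), and the fitted difference between the limitations was 2.01 (standard error 0.30). For *GID10* this difference was 1.46 (standard error 0.28).

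The other 6 subunits stayed near their batch cultures. *RMD5* ranged from -0.31 to -0.16 in glucose limitation and from -0.75 to 0.40 in histidine limitation, and *FYV10* from -0.40 to -0.15 in glucose limitation and from -0.22 to 0.09 in histidine limitation. The scaffold genes *VID30* and *GID8* averaged -0.19 ± 0.28 and -0.33 ± 0.15 (SD, n = 5) in glucose limitation, against -0.23 ± 0.27 and -0.38 ± 0.19 (SD, n = 4) in histidine limitation. The *GID8* value of the histidine-limited heat shock course, -0.14, is the mean of an exact 0 and -0.28. *GID7* averaged -0.22 ± 0.16 in glucose limitation and -0.15 ± 0.11 in histidine limitation. *VID28* averaged 0.13 ± 0.12 over the glucose-limited courses, and of the histidine-limited ones only the NaCl course gave a reading, of -0.13. The ranges of the 2 limitations overlapped for each of the 5 genes read in all cultures.

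In the limma fit with Benjamini-Hochberg adjustment over all 6132 ORFs, 2 subunits were past the threshold and higher (*VID24* and *GID10*) and 3 past it and lower (*FYV10*, *GID8* and *GID7*) in glucose-limited steady state, where 13.9% of ORFs were called higher and 14.8% lower. *GID7* lay at the threshold (limma adjusted p = 0.0448) and passed it under 4 of 13 alternatives only, with a mean of -0.18 without the heat shock course. In histidine-limited steady state *GID10* was past it and higher and *GID8* lower, with 18.2% and 16.5% of ORFs called. Without the clotrimazole course *GID10* averaged 0.68 there and no longer passed. Between the limitations *VID24* and *GID10* were past it and higher in glucose limitation and none was lower, beside 16.3% and 18.7% of ORFs. These counts describe the arrays by which the genes were chosen. The median estimate over the 8 subunits was -0.21 in glucose limitation and -0.13 in histidine limitation (-0.22 and -0.15 over the 7 without *VID28*), with medians over all ORFs of 0.00 in both. The arrays of a limitation were set against a batch culture of that medium, whose own spread is not in these fits.

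**Figure D1:**
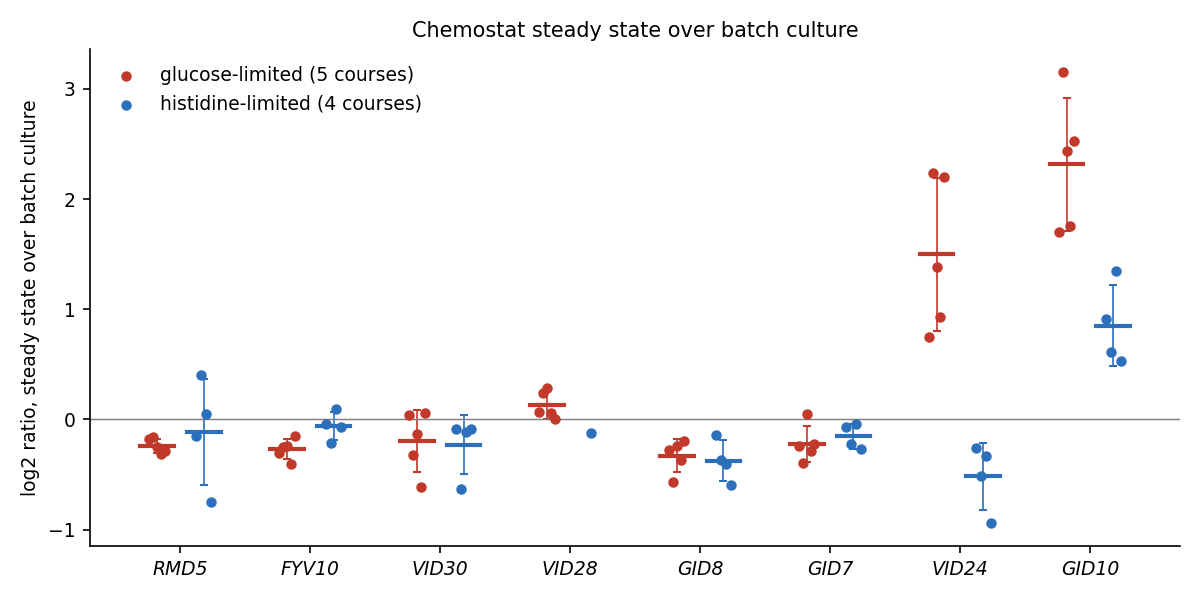
Log2 ratio of the chemostat steady state over batch culture for the 8 subunits, with 1 point per course (5 glucose-limited, left of each pair, and 4 histidine-limited, right); horizontal lines are means and bars are SD. *VID24* and *GID10* are the only genes whose points of the 2 limitations do not overlap, apart from *VID28*, which has 1 histidine-limited point because its exact zeros are taken as no reading.

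The substrates and partners of the complex were read in the same cultures. The gluconeogenic substrates lay far below batch culture in glucose limitation, with mean log2 ratios of -3.66 ± 0.54 for *FBP1* (fructose-1,6-bisphosphatase), -4.38 ± 0.22 for *ICL1* (isocitrate lyase), -3.03 ± 0.56 for *MDH2* (cytosolic malate dehydrogenase) and -3.99 ± 0.48 for *PCK1* (phosphoenolpyruvate carboxykinase; SD, n = 5 each). In histidine limitation *FBP1*, *ICL1*, *MDH2* and *PCK1* averaged -0.14, -0.87, 0.61 and 0.08. *ECM21*, an arrestin-like adaptor whose product Gid10 recognizes, averaged -0.48 ± 0.23 in glucose limitation and -0.37 ± 0.58 in histidine limitation. limma called all 5 substrates lower in glucose limitation (adjusted p at most 0.0346), and in histidine limitation *ICL1* lower and *MDH2* higher (adjusted p = 0.000322 and 0.023). In glucose limitation the receptor transcript *VID24* was therefore high over batch in the same cultures in which the transcripts of its substrates were low over batch. Per the study's methods the batch cultures grew in similar media, low in glucose for glucose limitation and rich in it for histidine limitation. A low ratio thus need not be a low level, and the level in the batch culture was not tested. At 0.25 h after addition of glucose *FBP1*, *ICL1*, *MDH2* and *PCK1* changed from this steady state by -4.36, -1.56, 0.37 and -2.45.

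*UBC8*, the ubiquitin-conjugating enzyme of the complex, and *UBP14*, a deubiquitinase also known as Gid6, were called lower in glucose limitation. *UBC8* averaged -0.79 ± 0.29 and *UBP14* -0.28 ± 0.12 there (limma adjusted p = 0.0001 and 0.0149), against 0.02 ± 0.05 and 0.29 ± 0.17 in histidine limitation, where *UBP14* was called higher (adjusted p = 0.0182). *GID11*, a further receptor, and *GID12*, a modulator of the complex, averaged 0.15 ± 0.13 and 0.12 ± 0.19 in glucose limitation and were not called. Between the limitations *UBC8* and *UBP14* were lower and *GID11* was higher in glucose limitation, by -0.81, -0.57 and 0.30 (limma adjusted p = 0.00124, 0.0025 and 0.0326).

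In the courses each value is the log2 ratio on an array minus the steady state of the same course. For DTT in histidine limitation no pre-onset array was used here, and the mean steady state of the other histidine-limited courses was used for it. *GID10* gave the highest single value of the complex. In the glucose-limited NaCl course it changed by 4.04 at 0.25 h (16.5-fold), 2.62 at 0.75 h, 0.51 at 1.75 h, -0.18 at 3 h, -1.41 at 5.08 h, -0.89 at 6.58 h and -0.61 at 8.93 h. In the histidine-limited NaCl course it changed by 3.67 at 0.23 h (12.8-fold), and by 0.16, -0.09, -0.16, 0.05 and 0.38 at 1.82, 2.90, 5.28, 7.37 and 17.15 h. In both courses the first array was the highest, and the change was 0.51 at 1.75 h in the glucose-limited and 0.16 at 1.82 h in the histidine-limited one. The doses of NaCl differ, so the peaks are set side by side only.

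Under DTT *GID10* came to its highest value later. In the histidine-limited course it changed by 1.84, 3.13, 3.56, 1.36, 2.28, 0.47 and 0.38 at 0.25, 1, 3.10, 6.55, 10.72, 19.32 and 28.62 h. In the glucose-limited course it changed by 0.00, 1.42, 1.78 and -0.17 at 0.33, 2.22, 4.95 and 8.63 h, and by -0.33 and -0.78 at 21.48 and 26.70 h. Its ratio over batch at 14.25 h was an exact 0, so the change of -1.70 listed for that array may be no reading. The highest value came at 3.10 h in the histidine-limited course and at 4.95 h in the glucose-limited one.

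H2O2 gave *GID10* a value of -0.37 at 0.25 h, 2.51 at 1.20 h, 0.60 at 2.83 h, 1.29 at 7.73 h, -0.51 at 13.50 h, 0.24 at 19.67 h and -1.24 at 28.32 h. The first array thus lay below the steady state and the second was the highest of the course. After heat shock it stood at 1.41 at 0.25 h in the histidine-limited course and within 0.51 of the steady state on the later arrays, apart from -0.91 at 2.47 h, where the ratio over batch was again an exact 0. In the glucose-limited heat shock *GID10* changed by -0.11, 0.04, -0.76, -0.81, -1.94, -0.89 and -1.18 at 0.25, 1.58, 3.62, 5.25, 6.33, 9.63 and 16.05 h. The lowest of these came after the return to the starting temperature. All of them rest on 1 array before the onset, where *GID10* stood at 3.16 over batch. That was its highest steady state in glucose limitation, where the mean was 2.31, so a change below 0 here depends on this baseline.

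Addition of glucose gave *GID10* changes of -1.79, -1.32, -0.79, -0.58, -0.86, 0.86 and -0.30 at 0.25, 1.08, 1.58, 3.08, 5.08, 8.08 and 9.80 h. It was below the steady state on 6 of the 7 arrays. With clotrimazole it was -0.09 at 0.25 h and 0.28, 0.48, 0.60, 1.34, 0.83, 1.31 and 1.24 at 1.20, 2.87, 5.03, 9.78, 14.18, 26.45 and 30.80 h. Addition of histidine moved it by no more than 0.43 in either direction. *GID10* exceeded a change of 1, which is a 2-fold change, on at least 1 array in 9 of the 10 courses.

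The *VID24* receptor followed another time course. In the glucose-limited heat shock it changed by -0.70 at 0.25 h, and by 1.41, 1.85, 2.57, 1.40, -0.01 and 0.30 at 1.58, 3.62, 5.25, 6.33, 9.63 and 16.05 h. With H2O2 it changed by -1.25, 1.61, 1.68, 0.89, 1.70, 0.95 and 0.78 at 0.25, 1.20, 2.83, 7.73, 13.50, 19.67 and 28.32 h. With NaCl it changed by -1.42, 0.46 and 0.98 at 0.25, 0.75 and 1.75 h, and lay between -0.46 and 0.18 afterwards. In these 3 glucose-limited courses the first array was below the steady state and the second above it.

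Under DTT the glucose-limited course gave *VID24* changes of -0.31, 0.75, 2.46, 2.46, 0.66, 0.07 and 0.12 at 0.33, 2.22, 4.95, 8.63, 14.25, 21.48 and 26.70 h. The histidine-limited course gave -0.11, 1.29, 1.34, 0.87, 0.60, 0.15 and 0.71 at 0.25, 1, 3.10, 6.55, 10.72, 19.32 and 28.62 h. In both the transcript was below the baseline on the first array, in the histidine-limited course at -0.11 only and against the steady state of other courses. It was highest on the third array in the histidine-limited course. In the glucose-limited course it was highest on the fourth, at 8.63 h, with the third level to 2 decimals. In the other histidine-limited courses *VID24* reached 0.88 after heat shock, 0.04 after NaCl, 1.23 with clotrimazole (14.18 h) and 0.28 with histidine.

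Addition of glucose gave *VID24* its only first-array value above 1. It changed by 1.71 at 0.25 h (3.26-fold), by -0.87, -1.01, -1.20 and -0.86 at 1.08, 1.58, 3.08 and 5.08 h, and by 0.60 and 1.74 at 8.08 and 9.80 h. On the first array of this course the only subunits above the steady state were *VID24* and, at 0.02, *VID28*, while *GID10* was the lowest of the 8. *VID24* exceeded a change of 1 in 7 of the 10 courses.

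**Figure D2:**
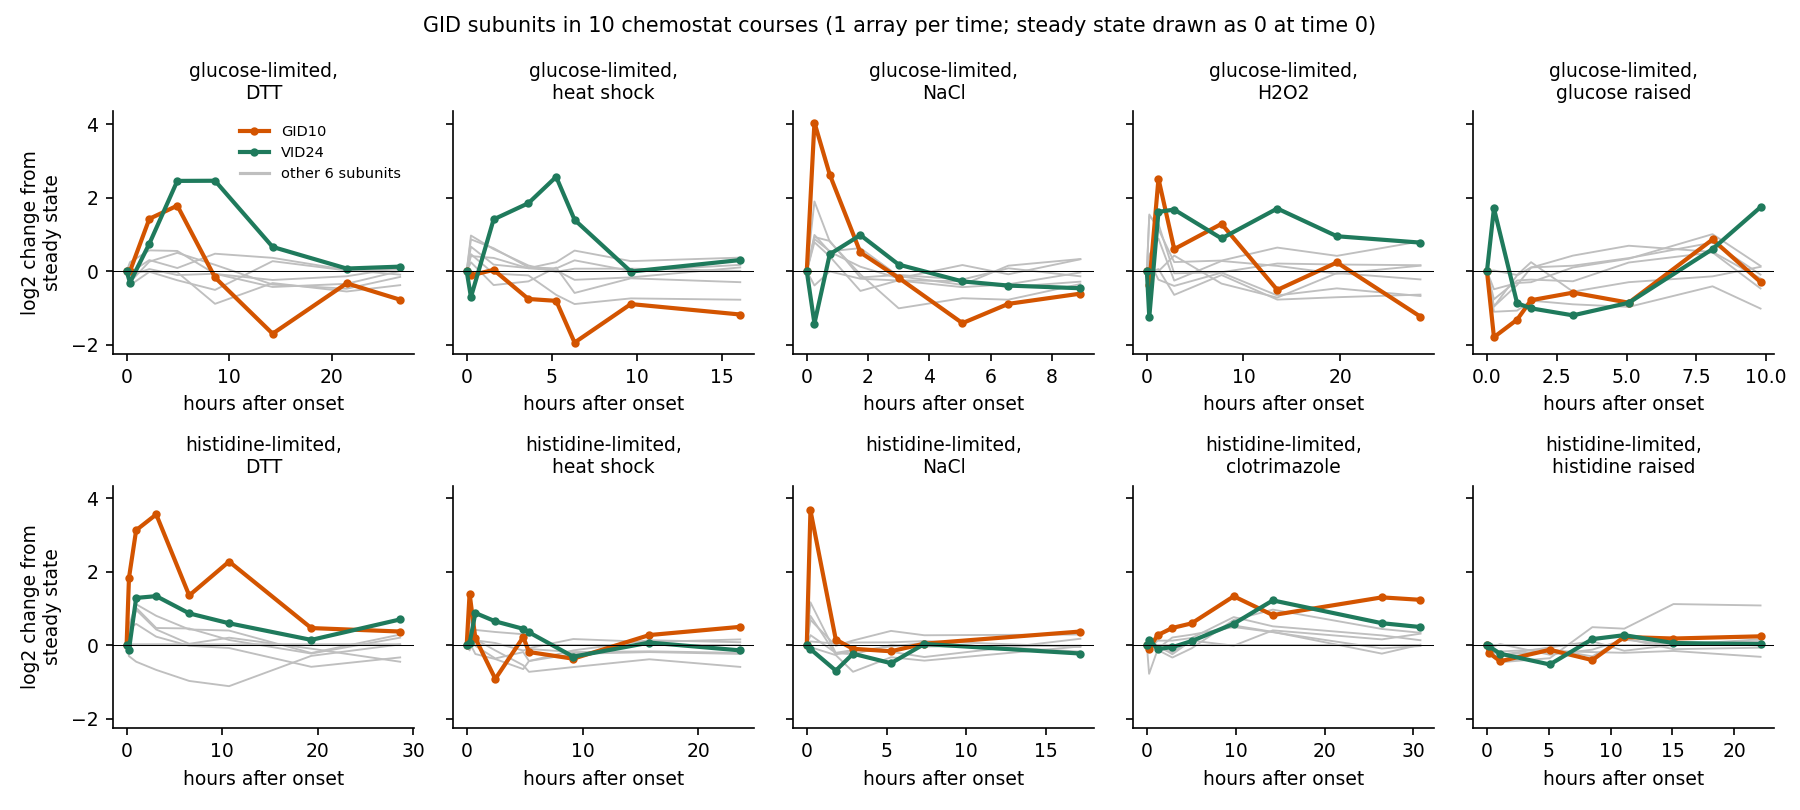
Log2 change from steady state against hours after the onset in the 10 chemostat courses, for *GID10* (orange), *VID24* (green) and the other 6 subunits (grey); each point is 1 array and the steady state is drawn as 0 at time 0. *GID10* reaches 4.04 and 3.67 on the first array after NaCl, and *VID24* reaches 2.57 in the glucose-limited heat shock.

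The 6 remaining subunits each passed a change of 1 in at most 3 of the 10 courses, though in single courses some of them moved more than a receptor. *VID30* changed by 1.90 at 0.25 h after NaCl in glucose limitation (3.72-fold) and by 0.80 at 0.75 h, and the histidine-limited NaCl course gave 0.70 on its first array. On that array its ratio over batch was 0.06, and the steady state of the course, -0.63, was the lowest of the histidine-limited ones. After addition of glucose *VID30* was between -1.10 and -0.41 on all 7 arrays. *GID8* and *GID7* moved most with H2O2, by 1.54 and 1.50 at 0.25 h and by 1.14 and 1.29 at 1.20 h, and both were within 0.81 of the steady state afterwards. The RING gene *FYV10* had its highest value, 1.17, on the first array of the histidine-limited NaCl course.

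*RMD5*, the RING partner of *FYV10*, differed from it in timing. In the histidine-limited DTT course it changed by -0.29, -0.44, -0.67, -0.97, -1.11, -0.28 and 0.03, lowest at 10.72 h, where *FYV10* stood at 0.21. After addition of histidine *RMD5* was at -0.08 on the first array and at -0.46 and -0.35 at 1.07 and 5.08 h. It then stood at 0.50, 0.46, 1.12 and 1.09 at 8.52, 11.10, 15.08 and 22.12 h. It was the only subunit to pass a change of 1 in that course, in which 1.92% of all ORFs did so. The steady state of the course rests on 1 array, where *RMD5* stood at -0.75, its lowest in histidine limitation. Its ratios over batch at 15.08 and 22.12 h were 0.37 and 0.34. *VID28*, where read, stayed between -0.67 and 0.27.

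Counted by course, the subunits with a change above 1 in size on any array numbered 2 of 8 with DTT, 2 with heat shock, 3 with NaCl, 4 with H2O2 and 4 with glucose in glucose limitation, where 22.1%, 23.4%, 37.7%, 32.2% and 29.6% of all ORFs did so. In histidine limitation they numbered 5 with DTT, 1 with heat shock, 2 with NaCl, 2 with clotrimazole and 1 with histidine, beside 30.4%, 10.3%, 19.4%, 16.6% and 1.92% of ORFs. The count with DTT rests on the steady state taken from the other courses. Of its members *VID30*, *GID7* and *RMD5* passed narrowly, at 1.03, 1.12 and -1.11. Over all courses 26 of the 80 pairs of subunit and course qualified, and 22.4% of all such pairs of ORF and course. Of the 26 pairs, *GID10* and *VID24* made up 16. The pairs of *VID28* with 4 of the histidine-limited courses could not have qualified.

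The early response was compared over the 7 stress courses (DTT, heat shock and NaCl in both limitations and H2O2), with the first array of each as 1 value. *GID10* had a lowest first change of -0.37 (H2O2), a median of 1.41 and a highest of 4.04 (glucose-limited NaCl), with a mean of 1.50 ± 1.81 (SD, n = 7 courses). *VID24* had a lowest of -1.42, a median of -0.31 and a highest of 0.06, with a mean of -0.55 ± 0.59 and 6 of 7 values below 0. Against the steady state, *GID10* was thus high in both NaCl courses, the histidine-limited DTT course and the histidine-limited heat shock. *VID24* was below its steady state mainly in the glucose-limited courses. That steady state averaged 1.50 over batch there and -0.51 in histidine limitation, so a fall from it need not be a low level. The mean change of *VID24* turned to 0.82 on the second arrays, chosen after seeing the data, and to 0.13 over the first 2.

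*FYV10* averaged 0.61 ± 0.45 and *GID7* 0.58 ± 0.55, each above 0 in 6 of 7 courses, *VID30* 0.56 ± 0.72, *GID8* 0.49 ± 0.63 and *RMD5* 0.31 ± 0.44 (SD, n = 7). In the limma fit 1 subunit, *FYV10*, was past the threshold and higher and none was lower, where 6.47% of ORFs were called higher and 8.37% lower. *FYV10* no longer passed when any 1 of 5 of the 7 courses was left out. Among the partners and substrates limma called 0 of 9, with 2 below an unadjusted p of 0.05, and the smallest adjusted p were those of *UBC8*, which averaged 0.78 ± 0.73 (limma adjusted p = 0.0546), and *GID11*, which was below 0 in 7 of 7 courses and averaged -0.41 ± 0.30 (adjusted p = 0.0559). The median estimate over the 8 subunits was 0.52 (0.56 over the 7 without *VID28*), and 0.01 over all ORFs.

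**Figure D3:**
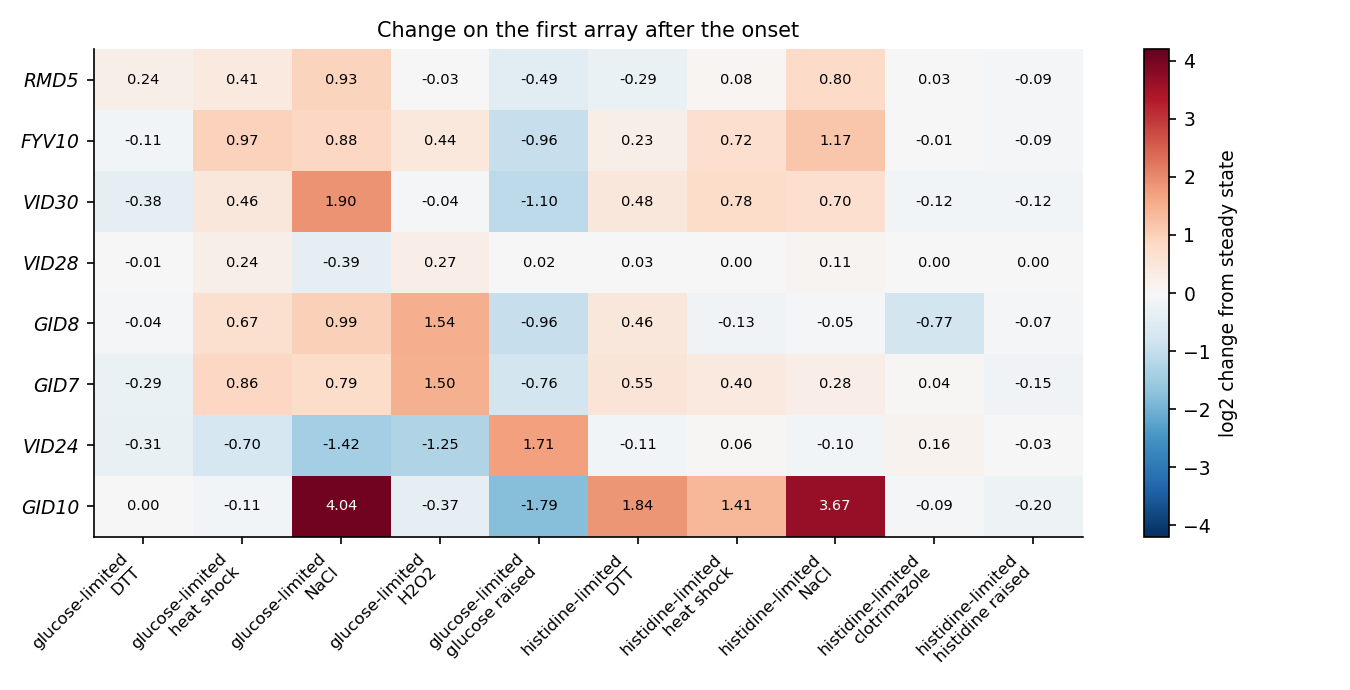
Log2 change from steady state on the first array after the onset, for the 8 subunits (rows) in the 10 courses (columns), with the value printed in each cell. The row of *GID10* holds 4.04, 3.67 and -1.79, and in the column of glucose addition *VID24* stands at 1.71. The cells of *VID28* in the histidine-limited DTT, heat shock, clotrimazole and histidine courses are printed but taken as no reading. The 0.03 under DTT comes only from the steady state taken from the other courses.

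The 3 stresses given in both limitations allow their first arrays to be compared. Glucose-limited minus histidine-limited, *GID10* differed by 0.37 with NaCl, -1.84 with DTT and -1.53 with heat shock, and *VID24* by -1.32, -0.20 and -0.77. The change of *VID24* from the steady state, though not its level over batch, was therefore lower in glucose limitation under all 3 stresses. The fitted mean differences were -0.998 (standard error 0.44) for *GID10* and -0.76 (standard error 0.30) for *VID24*, and between -0.13 and 0.44 for the 5 other subunits read in all of these courses. Without subtraction of the steady state the fitted differences were 0.64 for *GID10* and 1.12 for *VID24*. The steady states of both receptors were higher in glucose limitation, so both signs depend on the baseline. limma called 0 of the 8 subunits and 0 of 6132 ORFs, which is 0% of them, while 1 subunit (*VID24*) and 526 ORFs had an unadjusted p below 0.05. The doses of NaCl and the temperatures differ between the limitations.

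In log-phase cells the question was how the transcripts differ between glycerol, which requires gluconeogenesis, and glucose. *VID24* had log2 ratios of glycerol over glucose of -0.56, -0.35 and -0.61 on the *adh1* arrays and of 1.51 and 0.65 on the wild-type arrays. The strains did not overlap, and the signs were opposite. The means were -0.51 ± 0.14 (SD, n = 3) in *adh1* cells and 1.08 ± 0.61 (SD, n = 2) in wild-type cells, a fitted difference of -1.59 (standard error 0.25). Without wild-type replicate 1 the wild-type value was 0.65.

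*GID7* had ratios of 0.30, 0.65 and 0.45 on the *adh1* arrays and of 0.98 and 0.91 on the wild-type arrays. It was higher on glycerol in both strains and less so in *adh1* cells on every array, with a fitted difference of -0.48 (standard error 0.14). *RMD5* had ratios of 1.16, 1.19 and 1.24 in *adh1* cells, and of 1.56 and 0.77 in wild-type cells, which enclosed the mutant's. *GID8* varied least of the 7 subunits over the 5 arrays, with 1.01, 1.00 and 1.07 on the *adh1* arrays and 1.02 on both wild-type arrays, a 2.03-fold mean ratio in each strain.

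*VID28* had ratios of 0.57, 1.05 and 0.70 in *adh1* cells and of 1.00 and 1.12 in wild-type cells. *FYV10* had 0.03, 0.36 and 0.31 in *adh1* cells and 0.69 and 0.00 in wild-type cells, and *VID30* had 0.04, -0.16 and -0.16 in *adh1* cells against 0.28 and 0.22 in wild-type cells. Ratios of *VID28* and *FYV10* overlapped between the strains, and those of *VID30* did not.

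Over the 4827 ORFs read on each of the 5 arrays, the limma fit put 4 of 7 subunits past the threshold and higher (*RMD5*, *VID28*, *GID8* and *GID7*) and *VID24* lower on glycerol in *adh1* cells, where 29.1% of ORFs were called higher and 34% lower. In wild-type cells the same 4 genes and *VID24* were past it and higher and none was lower, with 27.7% and 33% of ORFs called. The difference between the strains put *GID7* and *VID24* past it, both lower in *adh1* cells, and none higher, beside 11.8% of ORFs called lower and 13.8% higher. *VID24* in *adh1* cells no longer passed without any 1 of the 3 mutant arrays, nor did the *GID7* difference without any 1 of the 5 arrays. As for the steady states, these counts are a description of arrays that were used to choose the genes. The median estimate of the 7 subunits was 0.47 in *adh1* cells and 1.02 in wild-type cells, with medians over all ORFs of -0.04 and -0.05.

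**Figure D4:**
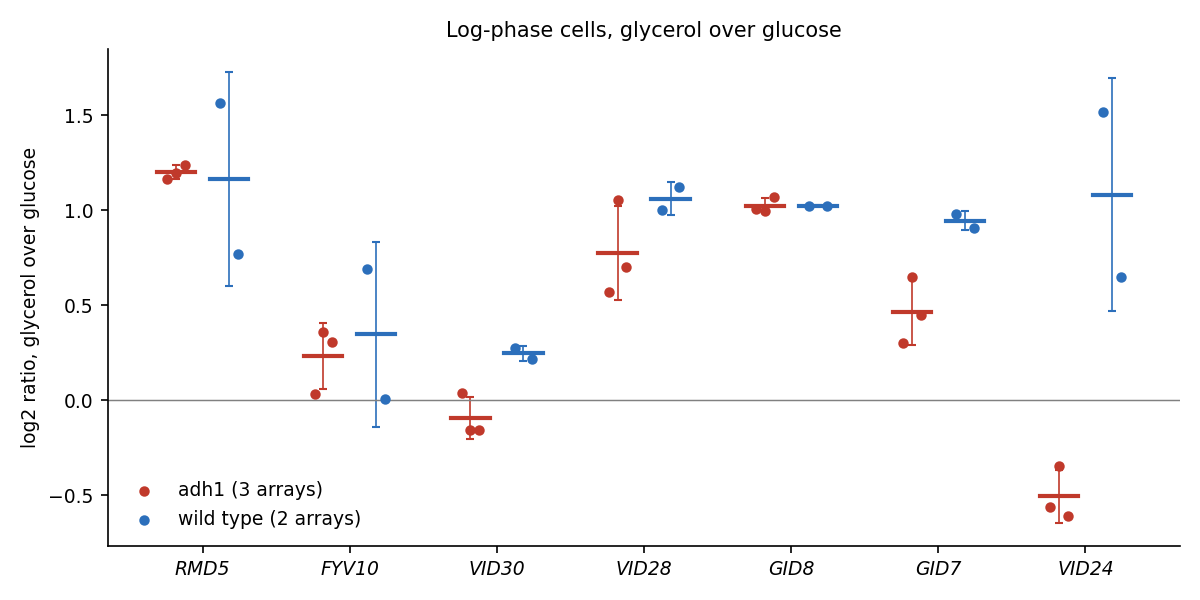
Log2 ratio of glycerol over glucose in log-phase cells for the 7 subunits with values, with 1 point per array (3 *adh1* arrays, left of each pair, and 2 wild-type arrays, right); horizontal lines are means and bars are SD. *VID24* is the only gene below 0 on all *adh1* arrays and above 0 on both wild-type arrays.

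Of the partners, *UBC8* was higher on glycerol in both strains, by 0.71 ± 0.10 (SD, n = 3) in *adh1* cells and 0.76 ± 0.12 (SD, n = 2) in wild-type cells (limma adjusted p = 0.000349 and 0.000649). *UBP14* averaged -0.13 ± 0.14 in *adh1* cells and 0.63 ± 0.13 in wild-type cells, and *GID11* averaged -0.16 ± 0.06 in *adh1* cells and -0.78 ± 0.29 in wild-type cells. Their differences between the strains, -0.77 and 0.62, passed the threshold (limma adjusted p = 0.010 and 0.0264). *ECM21* was higher on glycerol by 0.98 ± 0.06 in *adh1* cells and 0.99 ± 0.05 in wild-type cells. The other 4 substrates lacked a value on at least 1 array and were not tested. *PCK1* had ratios of 4.03, 4.13 and 2.26 in *adh1* cells and 2.25 on the 1 wild-type array that read it, *FBP1* had 2.96, 3.21 and 1.08 in *adh1* cells only, and *ICL1* had 2.39 and 2.49 on 2 *adh1* arrays, against 0.64 and 0.31 in wild-type cells.

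The transfer of *adh1* cells followed the same switch in time, with 1 array per time point. In glycerol *GID7* stood at 0.74, 0.64, 0.08 and 0.41 at 0.5, 1, 2 and 4 h, and in fresh glucose at -1.34, -0.56 and -0.32 at 0.5, 2 and 4 h. *GID8* stood at 0.13, 0.69, 0.29 and 0.69 in glycerol and at -0.77, -0.38 and -1.01 in fresh glucose. Both genes were thus above the overnight culture at every time in glycerol and below it at every time in fresh glucose. *VID30* was the reverse at 0.5 and 2 h, with -0.65, -0.71, -0.69 and -0.23 in glycerol and 0.43, 0.04 and -0.01 in fresh glucose.

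*VID24* stood at -0.16, -0.40, 0.02 and -0.62 in glycerol and at 0.11, -0.33 and -0.30 in fresh glucose. *GID10* stood at 0.40 and 0.50 at 0.5 and 1 h in glycerol and at -0.11, -0.07 and -0.13 in fresh glucose. Neither receptor therefore reached 1 in either medium at the times read. *FYV10* ranged from -0.31 to 0.61 in glycerol and from -0.45 to -0.20 in fresh glucose, and *RMD5* from -0.46 to 0.37 in glycerol and from -0.80 to 0.46 in fresh glucose. No subunit of the 6 with all values exceeded 1 in size in glycerol and 2 of 7 did in fresh glucose (*GID7* and *GID8*), against 32.6% and 25.4% of all ORFs. *UBC8* stood at 2.28, 1.42, 1.08 and 1.16 in glycerol and between -0.13 and 0.36 in fresh glucose, and *ICL1* at 5.48, 5.19, 2.50 and 4.36 in glycerol and between -0.44 and -0.28 in fresh glucose.

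**Figure D5:**
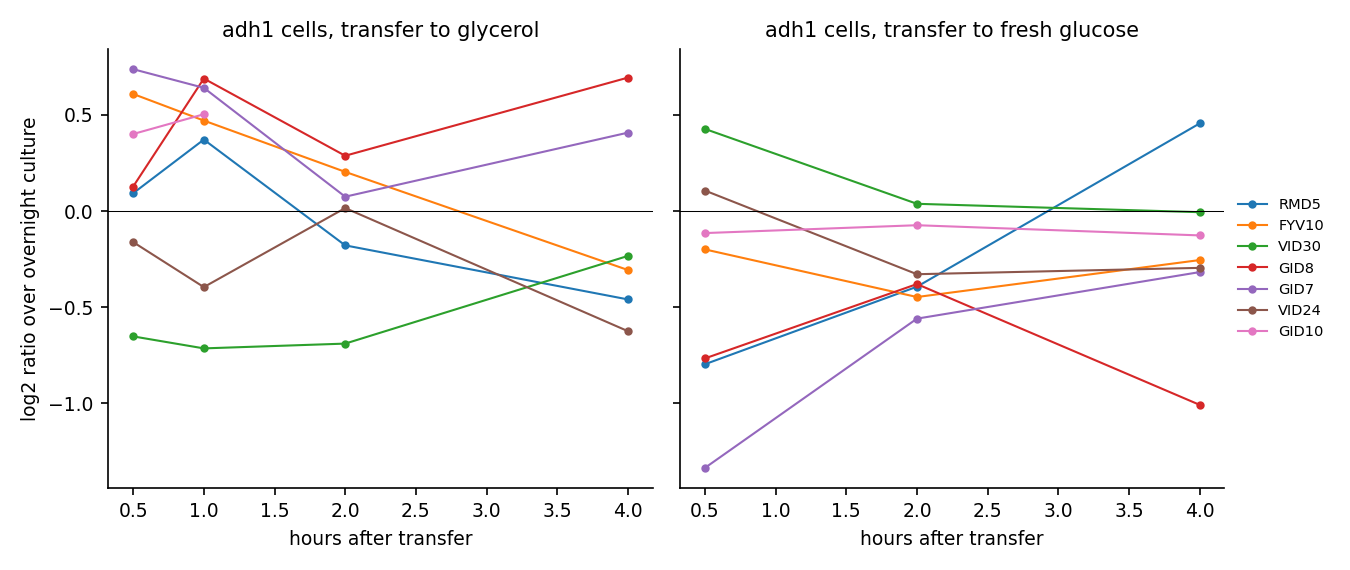
Log2 ratio over the overnight glucose culture against hours after the transfer of *adh1* cells to glycerol (left) and to fresh glucose (right), with 1 line per subunit and 1 array per point. *GID7* and *GID8* lie above 0 in glycerol and below 0 in fresh glucose, and *GID10* has no point at 2 and 4 h in glycerol.

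In the chemostat courses the partners and substrates gave their own patterns. *UBC8* changed by 2.03 at 0.25 h and *ICL1* by 2.49 at 0.25 h after NaCl in glucose limitation, on the array on which *GID10* stood at 4.04 and *VID24* at -1.42. The other gluconeogenic substrates did not share this rise, with *FBP1* at 0.09, *MDH2* at -0.96 and *PCK1* at -1.30. On the first array of the histidine-limited NaCl course *FBP1*, *ICL1*, *MDH2* and *PCK1* stood at 0.01, 0.16, 2.43 and -0.01. After addition of glucose *FBP1* changed by -4.36, *PCK1* by -2.45 and *ICL1* by -1.56 at 0.25 h, where *VID24* stood at 1.71, while *MDH2* stood at 0.37. At 5.08 h of this course *FBP1*, *ICL1*, *MDH2* and *PCK1* were at 1.90, 2.53, 2.22 and 0.75, and *VID24* at -0.86. *VID24* and *FBP1* were on opposite sides of the steady state on 5 of the 7 arrays of this course, and both were below it at 1.08 h (-0.87 and -3.39) and 1.58 h (-1.01 and -1.93). *GID11* changed by -1.99 at 1 h after DTT in histidine limitation and by -1.50 at 1.20 h after H2O2, where *GID10* stood at 3.13 and 2.51. On the first NaCl arrays *GID11* stood at -0.82 in glucose limitation and at -0.04 in histidine limitation, where *GID10* stood at 4.04 and 3.67.

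Over the 71 arrays after the onset, *GID10* and *VID24* correlated at r = 0.08 (0.03 over the 35 glucose-limited and 0.47 over the 36 histidine-limited arrays). *GID10* correlated most with *VID30* among the subunits (r = 0.76, and 0.71 without the 2 arrays farthest from the *GID10* median), then with *FYV10* (0.58) and *GID7* (0.56). *VID24* correlated with no other subunit above 0.12 over all arrays. Over the histidine-limited arrays it stood at 0.58 with *GID7*, 0.52 with *GID8*, 0.43 with *VID30* and 0.36 with *FYV10*, and over the glucose-limited arrays at -0.03, -0.20, -0.11 and -0.25 with these genes. Without the 2 arrays farthest from the median the histidine-limited values were 0.36, 0.45, 0.26 and 0.19. The scaffold gene *GID8* and *GID7* correlated at 0.67. Arrays of a course share a steady state and are not independent, so these coefficients describe the arrays only.

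The ORFs outside the complex most like *GID10* over the same 71 arrays were *UGX2* (r = 0.80), *VPS17*, a retromer subunit (0.79), *SPT3*, a subunit of the SAGA coactivator (0.77), YMR090W (0.77) and *HSE1*, a subunit of the endosomal ESCRT-0 complex (0.76). Those most like *VID24* were YOR338W (0.80), *ROX3*, a subunit of the Mediator (0.75), *GAG1* (YLR407W, 0.74), *NHA1*, a sodium/proton antiporter (0.72), and *UCC1*, an F-box protein (0.70). Without the 2 arrays farthest from the median of each receptor the coefficients lay between 0.69 and 0.76 for *GID10* and between 0.66 and 0.76 for *VID24*. The lists of 5 had no gene in common.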

How the data were processed

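The authors deposited 1 table of log2 ratios of Cy5 over Cy3 for 6132 ORFs on 95 arrays. Per the study's methods, cDNA was labeled by the amino-allyl method, hybridized to printed ORF arrays and read with either of 2 scanners and either of 2 image programs, kept the same within an experiment; which arrays used which is not given in the sources used here. Before deposit the ratios were put on the log2 scale and adjusted, by a normalization whose method the main and supplementary methods do not give. The values were used as deposited; exact zeros stayed in the fits, and those of *VID28* in 4 histidine-limited courses were read as no reading in the text. Signal intensities are not analysed here, so the number of arrays limits the precision. Groups and times come from the labels; the time was read from the title where another field of the heat-shock arrays repeated the DTT times.

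Per ORF, limma 3.58.1 (R 4.3.3) was fitted, its variances moderated by empirical Bayes, and p-values were adjusted by Benjamini-Hochberg over all ORFs tested, at a threshold of 0.05: a mean per strain for the log phase, and 1 value per course for the chemostats, with the stress as a block between limitations. The log-phase fit took ORFs with a value on all 5 arrays. Single arrays were given as values, with a change above 1 in size counted. The fits were tested on simulated data. Other steps ran in Python 3.11.15 (pandas 2.3.3, numpy 2.4.6), and figures were drawn with matplotlib 3.10.9. The subunits, the lists of partners and substrates, the tests and the alternatives were chosen with earlier results of these data known. All subunits, partners and substrates are named, and for *GID10* and *VID24* the 5 ORFs with the highest Pearson correlation over the 71 arrays. Alternatives covered centering, zeros as missing, robust moderation, the limit on missing values, other baselines, later arrays, the block for the replicate number and each array or course left out. Of the ORF names, 5608 were found in the reference annotation. Promoter and protein sequences are not analysed here.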

Additional observations from a re-analysis of the deposited data

Results flagged for a closer look

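For 4 results, limma's fit of the difference between groups was past its threshold. For *VID24* the log2 ratio of glycerol over glucose differed between *adh1* and wild-type cells by -1.59, with opposite signs in the strains, and for *GID7* by -0.48. Between the limitations the steady state over batch differed by 2.01 for *VID24* and by 1.46 for *GID10*, glucose-limited minus histidine-limited. The genes were chosen with these values in view, so these are descriptions and not tests. The *GID7* value no longer passed without any 1 of the 5 log-phase arrays.

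In 23 groups of 4 to 7 values that were examined, leaving out the *VID28* zeros taken as no reading, 1 held a value far from the others by Dixon's criterion at the 95% level, and chance flags about 1 in 20 groups. *VID30* had a steady state of -0.63 in the histidine-limited NaCl course, and the nearest of the other 3 was -0.11.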

How the results depend on the processing

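The counts of subunits called kept within 1.5 times of their value under centering, zeros as missing and robust moderation in all 8 fits. Replicate numbers do not pair the log-phase arrays: deviations of same-numbered arrays correlated at 0.054 and -0.0018. With a block for the replicate number, which therefore has no pairing behind it, 1 subunit (*VID24*) in place of 2 was called between the strains, with a *VID24* difference of -1.54. Leaving out each array in turn gave 1 in every case. Where this left 1 wild-type array, it is assumed to vary like the *adh1* arrays. Over the 7 stress courses 1 subunit was called, against 0 to 2 with a course left out, 2 with the mean of the first 2 arrays (*FYV10* and *GID10*) and 0 with the second array in place of the first, which was chosen after seeing the data. Without subtraction of the steady state it was again 1, but *GID10* (3.13) in place of *FYV10* (0.40). In histidine-limited steady state 2 were called, and 1 to 2 with a course left out. Without the subtraction of the steady state, *GID10* stood above batch at 1.21 in place of -1.94 at 6.33 h of the glucose-limited heat shock and at 0.73 in place of -1.79 at 0.25 h after glucose; the alternative's own construction gives this, since the steady state was above batch. With 1 array per time, the single changes have no replicate check.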
